A study of Mus musculus with 8 samples.

Results

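Heat shock proteins are chaperones that keep other proteins folded, and 10 of them that are well known in skeletal muscle are described here in the SOL (soleus) muscle of MI4KO and flox mice. The 10 genes were taken by symbol, not by a cut on values, from a list chosen with earlier results of these data known. They are Hspa1a, Hspa1b, Hspa8, Hsp90aa1, Hsph1, Dnajb1, Hspb1, Hspb6, Hspb7 and Cryab, and each has a row among the 24054 genes of the table. RNA of 8 male C57BL/6 mice was sequenced, with 1 library per mouse and 4 mice in each group. Both groups carry floxed alleles of Irf4, an interferon regulatory factor, and the labels record a high fat diet for all 8 mice but no age. The flox mice have no Cre, while the MI4KO mice also carry Cre under the Myl1 promoter, which acts in skeletal muscle fibers, so the other cells of the muscle keep Irf4. The mice of each group are called 1 to 4 here, from the lowest to the highest mouse number in the labels. The series asked which genes differ when muscle lacks IRF4, and the values below answer this for the chaperones alone.

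The HSP70 proteins bind unfolded stretches of other proteins and release them in cycles driven by ATP. J-domain proteins such as Dnajb1 start the cycle, Hsph1 (HSP110) restarts it by exchanging nucleotides, and HSP90 takes over clients that need a late folding step. The small heat shock proteins work without ATP, hold proteins in a soluble state and, in muscle, are found at Z-discs and along the desmin and filamin networks. Several of these genes are switched on by heat shock factor 1 (HSF1), which binds repeated GAA and TTC units in promoters, after heat, exercise or other stress. Slow muscles such as SOL are known to hold much of the small heat shock proteins even at rest.

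Promoters of 4 members are shown because HSF1 is known to act on such genes through GAA and TTC units and because the windows place the near-identical HSP70 pair side by side. Each runs from 250 bases before a RefSeq start site to 30 bases after it, 5′ to 3′ on the gene's strand, on GRCm38.p6. Capitals mark a GAA unit and a TTC unit in either order with any 2 bases between them, and a longer run of capitals holds 3 such alternating units. The windows are chr17:34972127-34972406 on the minus strand for Hspa1a, chr17:34959209-34959488 on the minus strand for Hspa1b, chr5:149636286-149636565 on the minus strand for Hsph1 (the second of its start sites, 21 bases from the first) and chr5:135887669-135887948 on the plus strand for Hspb1.
Hspa1a: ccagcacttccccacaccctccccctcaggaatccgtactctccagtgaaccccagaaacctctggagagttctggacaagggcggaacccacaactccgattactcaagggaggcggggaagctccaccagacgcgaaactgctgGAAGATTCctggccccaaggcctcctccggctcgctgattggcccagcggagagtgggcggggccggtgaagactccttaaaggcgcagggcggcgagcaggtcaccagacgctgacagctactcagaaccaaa
Hspa1b: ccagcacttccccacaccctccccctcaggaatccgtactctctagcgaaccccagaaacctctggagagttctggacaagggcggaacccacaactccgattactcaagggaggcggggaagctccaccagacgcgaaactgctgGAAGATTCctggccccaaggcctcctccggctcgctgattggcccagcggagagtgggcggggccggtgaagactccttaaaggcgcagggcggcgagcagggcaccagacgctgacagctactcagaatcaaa
Hsph1: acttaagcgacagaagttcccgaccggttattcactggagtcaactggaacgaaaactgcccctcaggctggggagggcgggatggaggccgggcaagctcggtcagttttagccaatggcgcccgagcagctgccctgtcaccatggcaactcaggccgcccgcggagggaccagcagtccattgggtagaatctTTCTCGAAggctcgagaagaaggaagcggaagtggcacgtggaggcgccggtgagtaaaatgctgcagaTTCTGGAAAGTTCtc
Hspb1: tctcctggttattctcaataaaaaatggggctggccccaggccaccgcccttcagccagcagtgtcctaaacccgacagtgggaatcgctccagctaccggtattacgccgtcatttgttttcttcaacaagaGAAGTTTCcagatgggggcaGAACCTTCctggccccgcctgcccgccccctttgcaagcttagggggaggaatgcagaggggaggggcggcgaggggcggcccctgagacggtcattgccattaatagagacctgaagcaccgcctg

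The Hspa1a and Hspa1b windows were identical at 296 of 300 bases (98.7%) when read to 50 bases after the start. Counted from 1 at the 5′ end, with the base of Hspa1a first, they differed by C44T, T47C, T249G and C276T, and the pair of units at positions 147 to 154 was shared. Hspb1 held such a pair at positions 134 to 141 and again at 154 to 161. RefSeq windows were matched for 7 of the 10 members. Of these, 5 held at least 1 pair of units (Hspa1a, Hspa1b, Hsph1, Hspb1 and Hspb6), and Dnajb1 and Hspb7 held none. Such a pair was present in 15.1% of all 32851 promoter windows of this length, on either strand, since the motif reads the same on both. That share is per window, while the 7 members had 10 windows, and Hspb6 held a pair in only 1 of its 2. The 2 shares are therefore not like for like. Hsph1 was the only 1 of the 7 with 3 alternating units, in a run of 13 bases at positions 266 to 278, after its start. Of all windows, 0.603% held 3 such units. A match in these windows is a description and not a binding site.

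The libraries held between 13417512 and 16384565 reads on genes, and the deposited values are CPM (reads of a gene per 1e6 reads of its library) after TMM scaling, which assumes that the bulk of genes did not differ between libraries. At this depth 3 reads give a value of 0.181 to 0.225, and all members lay far above it. Irf4 itself was at 1.35 ± 0.451 in flox mice against 0.715 ± 0.324 in MI4KO mice (SD, n = 4 each), on 4 to 23 reads. It was at 0.686, 1.46, 1.58 and 1.68 in flox mice 1 to 4 and at 0.725, 0.840, 0.266 and 1.03 in MI4KO mice 1 to 4. The library labelled flox mouse 1 thus lay inside the MI4KO range, on 11 reads, and its Irf4 value goes against its label. So few reads cannot decide the genotype of a single mouse. The defining genes of slow fibers were present in every mouse, at a summed value of 48991 to 59161 in flox mice and 48821 to 51894 in MI4KO mice. Flox mouse 1 stood apart by liver transcripts, with a summed value of 137.9 for 9 liver genes against 1.95 to 3.19 in the other flox mice and 1.197 to 2.07 in MI4KO mice. MI4KO mouse 3 stood apart by 12 glucocorticoid-responsive genes, with a mean log2 level of 7.10 against 4.98 to 5.55 elsewhere, and by neutrophil genes, at 4.25 against 0.146 to 0.375.

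None of the 10 heat shock proteins passed the test for a change between MI4KO and flox mice. Each was tested by limma on log2(value + 1) across the 11865 genes that reached a value of 1 in 4 or more mice, and each had a Benjamini-Hochberg adjusted p of 1.0. At an adjusted p under 0.05 limma called 0 of all genes (0.0%), as did edgeR and DESeq2. An unadjusted p under 0.05 was reached by 399 genes (3.36%) and by 0 members. The limits of the study, an unadjusted p under 0.05 with a 1.5-fold change or more, took 26 genes (0.219%) and again 0 members. The values of the groups overlapped for all 10 members, while they did not overlap for 2.07% of the genes tested. On the scale of log2 differences, 9 members were lower in MI4KO mice and Hsph1 was higher, with a median of -0.11, against a median of -0.01 over all genes tested, of which 56.2% were lower.

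The 95% intervals give the size of change that these mice leave possible. For 8 of the 10 the 95% interval of the difference lay within a fold change of 1.5 in either direction, the exceptions being Hspa1a and Hspa1b. Among these 8 the lower ends reached a fold change of 0.70 for Cryab, 0.72 for Hspb7 and 0.73 for Hspb1. The intervals take all 8 mice together. The mice of the upper number range alone, described below, gave larger differences for Cryab, Hspb7 and Hspb1. The sign of the small differences depended on the scaling, since 6 members were lower and 4 higher when the libraries were set to equal sums, where 40.1% of all genes tested were lower. It depended more on flox mouse 3, without which 4 members were lower and 6 higher, while 50.3% of all genes tested were lower.

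**Figure D1:**
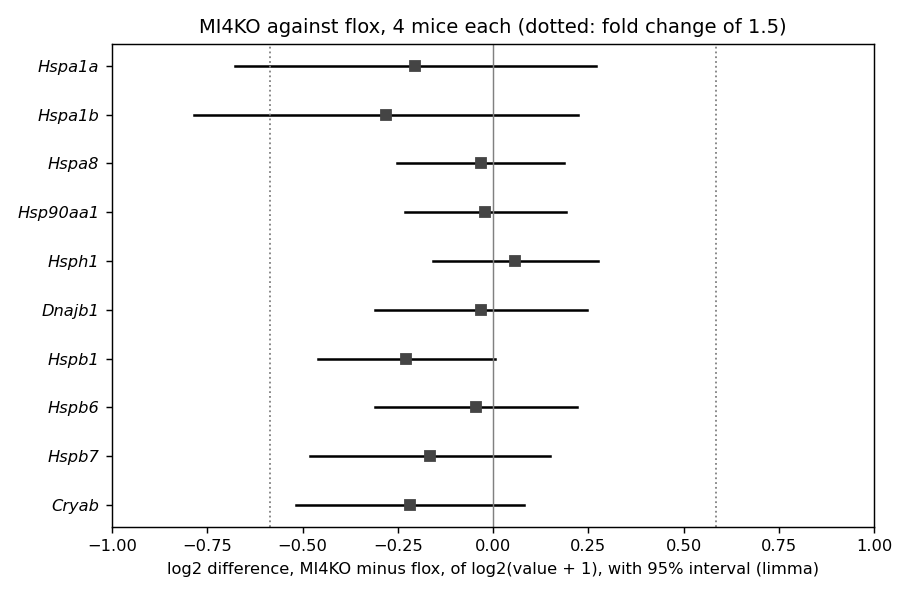
Differences of log2(value + 1) between MI4KO and flox mice for each member on the x axis, with squares for the estimate and bars for the 95% interval by limma, 4 mice per group. All 10 intervals include 0, and those of Hspa1a and Hspa1b alone extend past the dotted line for a fold change of 1.5.

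The small heat shock proteins had most of the reads of the 10 genes. Their 4 mRNAs together took 0.985% to 1.16% of all reads in flox mice and 0.746% to 1.204% in MI4KO mice. Divided by transcript length, Cryab (αB-crystallin, which binds desmin filaments) had the highest level of the 10, at 2915 ± 262 (SD, n = 4) CPM per kb in flox mice. Hspb6 (HSP20) followed at 1701 ± 212 and Hspb7 (cvHSP, enriched in heart and skeletal muscle) at 1354 ± 178, and the ranges of these neighbours overlapped.

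The constitutive HSP70 Hspa8 came next at 645 ± 55.4 CPM per kb and Hspb1 (HSP25, the mouse HSP27) at 459 ± 70.3 (SD, n = 4, flox mice). The stress-inducible genes lay far lower, with Hspa1a at 37.0 ± 14.9, Hsp90aa1 at 24.0 ± 2.81, Hspa1b at 20.9 ± 8.10, Hsph1 at 13.4 ± 1.58 and Dnajb1 at 3.95 ± 0.502. Among the lower genes in flox mice, the ranges of Hsp90aa1 and Hspa1b overlapped. The order was the same in MI4KO mice, where the ranges of all neighbours from Hspa1a down to Hsph1 overlapped, and those of Hspb6 and Hspb7 again. These levels used the longest transcript of each gene, and the mean transcript length placed Hspa8 at 1657 CPM per kb, above Hspb7. It also placed Hsp90aa1 at 66.4, above Hspa1a, and Hsph1 at 32.8, above Hspa1b.

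**Figure D2:**
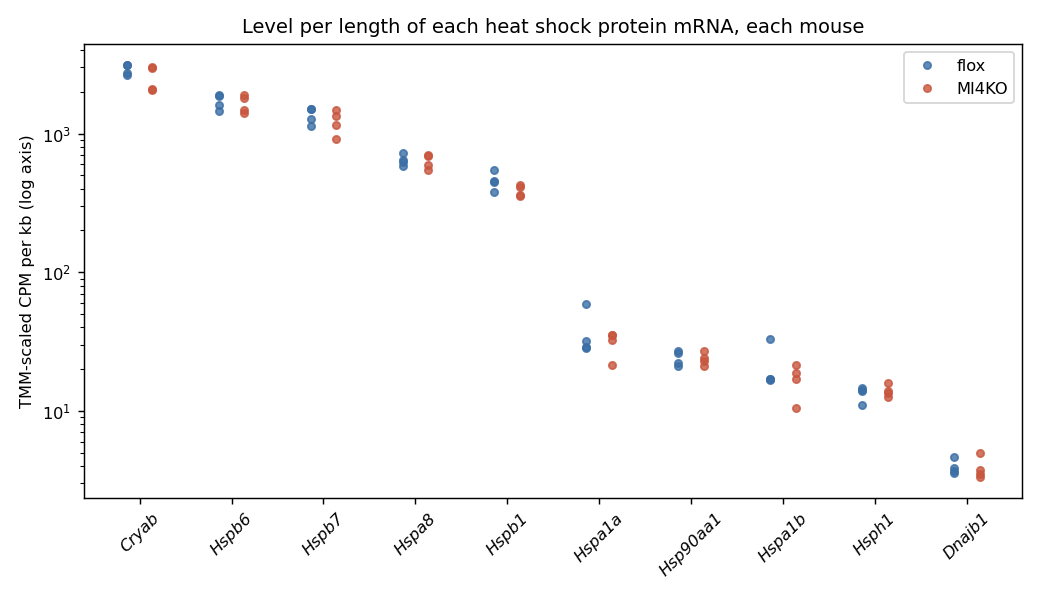
Level of each member in CPM per kb of its longest transcript, on a log axis, with 1 point per mouse (4 flox in blue, 4 MI4KO in red). In flox mice the means fall from 2915 for Cryab to 3.95 for Dnajb1, and the order is the same in both groups.

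Hspa1a and Hspa1b encode the stress-inducible HSP70 and lie next to each other on chromosome 17 of GRCm38 (GENCODE M21), at chr17:34969190-34972156 and chr17:34956436-34959238 on the minus strand. Hspa1a was at 94.1, 85.1, 175.6 and 83.8 scaled CPM in flox mice 1 to 4 and at 96.2, 103.8, 63.7 and 104.6 in MI4KO mice 1 to 4. Hspa1b was at 47.3, 46.8, 92.7 and 47.8 in the flox mice and at 59.6, 52.6, 29.5 and 47.7 in the MI4KO mice. For both genes flox mouse 3 was the highest and MI4KO mouse 3 the lowest of the 8, while the other 6 mice lay closer together. Among those 6, the 3 MI4KO mice lay above the 3 flox mice for Hspa1a, and for Hspa1b MI4KO mouse 4 lay just below flox mouse 4 and the other MI4KO mice above all flox mice. Setting aside the highest flox mouse and the lowest MI4KO mouse can only move the MI4KO mice up against the flox mice. No direction can be read from the order of those 6.

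The log2 difference of MI4KO from flox mice was -0.20 for Hspa1a (standard error 0.22, 95% interval -0.68 to 0.27, unadjusted p = 0.367 by limma). It was -0.28 for Hspa1b (standard error 0.23, 95% interval -0.79 to 0.22, unadjusted p = 0.248 by limma). Exact two-sided permutation tests of the 8 values gave p = 0.600 for Hspa1a and p = 0.543 for Hspa1b, where 4 mice against 4 cannot give less than 0.0286. Without flox mouse 3 the difference was 0.04 for Hspa1a and -0.04 for Hspa1b, so that this mouse set most of its size. Without MI4KO mouse 3 it was -0.04 for Hspa1a and -0.08 for Hspa1b.

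The spread between mice of the same group was large for this pair. The residual standard deviation on the log2 scale was 0.43 for Hspa1a and 0.46 for Hspa1b, against a median of 0.15 over all genes tested, and 97.4% and 97.8% of those genes had a smaller one. Both genes moved together over the 8 mice (Pearson r 0.946, Spearman rho 0.71), as a description of libraries in which they share reads. The reads of 50 bases could not always tell them apart: 58.8% of the 50-base windows of Hspa1a also occur in Hspa1b, and RSEM divides such reads by an estimate. An antisense gene, Gm20481, also overlaps Hspa1a by 2225 bases and has no row in the table. The ratio of Hspa1a to Hspa1b was 1.75 to 1.99 in flox mice and 1.61 to 2.19 in MI4KO mice.

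The sum of the pair is not affected by how shared reads were divided between them. It was 141.4, 131.9, 268.3 and 131.6 in flox mice 1 to 4 and 155.8, 156.3, 93.2 and 152.4 in MI4KO mice 1 to 4. Flox mouse 3 and MI4KO mouse 3 again stood at the ends, and among the other 6 mice the MI4KO mice were the higher ones. As above, setting aside mice at the ends by their values moves the MI4KO mice up, so this order gives no direction. With all 8 mice, the log2 difference of the sum was -0.23 (unadjusted p = 0.317 by limma). Hspa1l, the neighbouring HSP70 gene on the opposite strand and known mainly from testis, was also highest in flox mouse 3 at 130.8 and lowest in MI4KO mouse 3 at 76.1. Its other mice lay between 93.2 and 112.1, and its level was 0.745 to 1.195 times that of Hspa1a. Of its 2423 windows of 50 bases, 71.4% are shared with an antisense gene and 232 occur in Hspa1a, so the Hspa1l and Hspa1a rows can share reads. Whether counting used the strand of the reads is not stated in the sources used here.

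**Figure D3:**
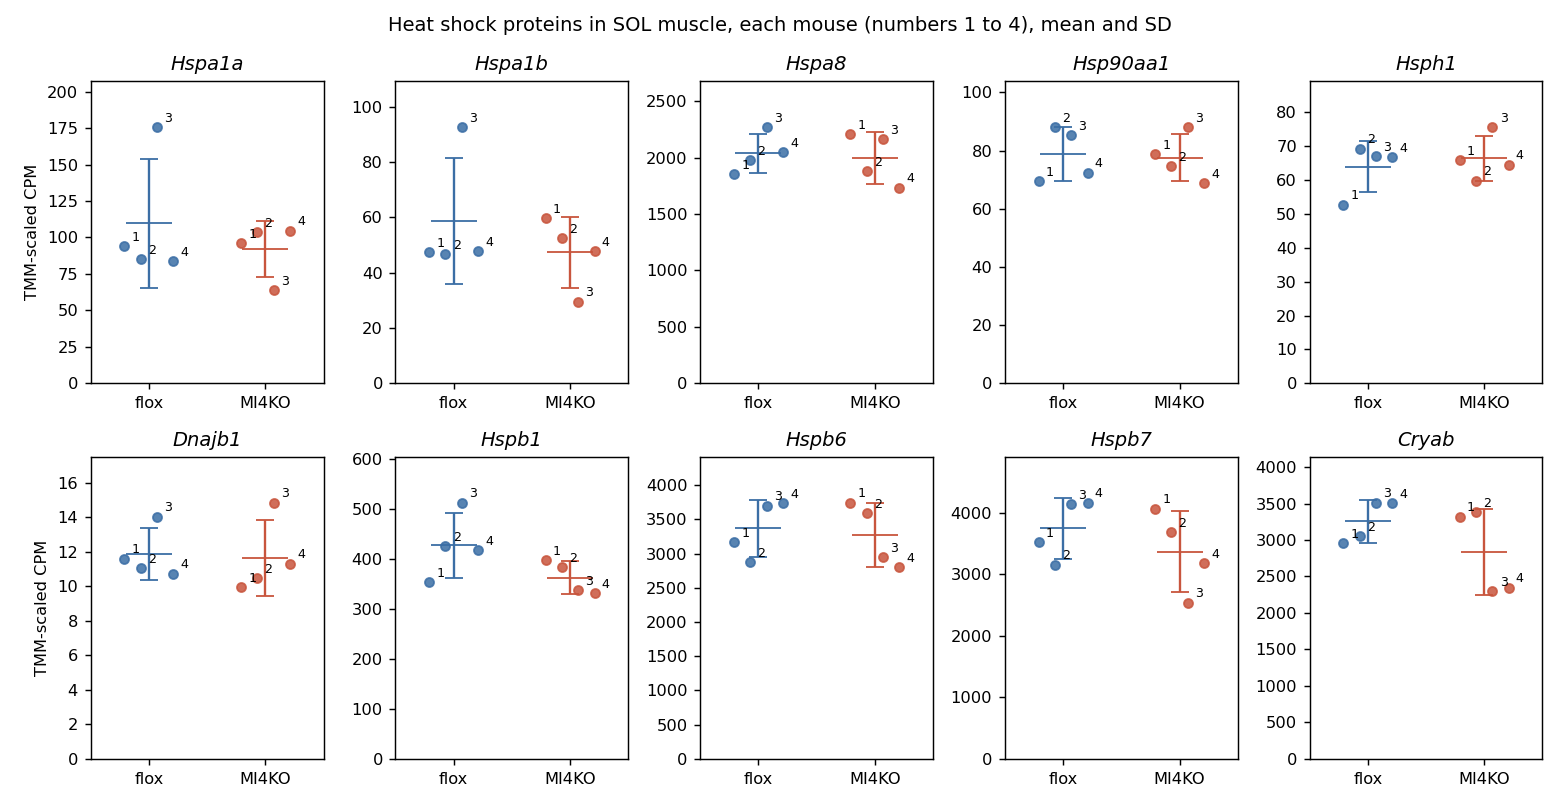
TMM-scaled CPM of each member in each mouse, on linear axes from 0, with the mouse number beside each point and the group mean and SD as horizontal and vertical bars. Flox mouse 3 stands above and MI4KO mouse 3 below the other mice for Hspa1a and Hspa1b, and the groups overlap in every panel.

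Hspa8 (HSC70, chr9:40800984-40810087, plus strand), the HSP70 that all cells make without stress, was among the steadiest members. It was at 1853, 1978, 2270 and 2047 in flox mice 1 to 4 and at 2208, 1880, 2165 and 1732 in MI4KO mice 1 to 4. The groups covered the same range, with a log2 difference of -0.03 (standard error 0.10, 95% interval -0.25 to 0.19, unadjusted p = 0.752 by limma). Of its 50-base windows 52.7% also occur in other genes, mostly in processed pseudogenes such as Gm15459.

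Hsp90aa1 (chr12:110690605-110702728, minus strand), the inducible cytosolic HSP90, was at 69.5 to 88.0 in flox mice and 68.8 to 88.1 in MI4KO mice. Its log2 difference was -0.02 (standard error 0.10, 95% interval -0.23 to 0.19). The constitutive HSP90 gene Hsp90ab1 had 17.2 to 21.9 times as many reads as Hsp90aa1 in each mouse, a ratio of reads and not of levels per length. Of the 50-base windows of Hsp90aa1, 58.5% also occur in other genes, mostly in Gm12346, which has no row in the table.

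Hsph1 (HSP110, chr5:149614287-149636376, minus strand), whose transcript shares no 50-base window with another gene, was at 52.7, 69.2, 67.0 and 66.7 in flox mice 1 to 4. In MI4KO mice 1 to 4 it was at 65.8, 59.9, 75.7 and 64.6. Flox mouse 1 was the lowest of the 8 and MI4KO mouse 3 the highest. The log2 difference was 0.06 (standard error 0.10, 95% interval -0.16 to 0.27, unadjusted p = 0.567 by limma), and it was -0.09 without these mice. Setting aside the lowest flox and the highest MI4KO mouse can only lower the difference, so the -0.09 gives no direction.

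Dnajb1 (HSP40, chr8:83608193-83612653, plus strand), the J-domain partner of the inducible HSP70, had the fewest reads of the 10, 137 to 223 per mouse. Its scaled values were 11.60, 11.03, 14.03 and 10.71 in flox mice 1 to 4 and 9.94, 10.47, 14.82 and 11.30 in MI4KO mice 1 to 4. Mouse 3 was the highest in each group, and the log2 difference was -0.03 (standard error 0.13, 95% interval -0.31 to 0.25).

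In MI4KO mouse 3 the inducible chaperones were thus split. Hsp90aa1, Hsph1 and Dnajb1 were at their highest of the 8 mice there, while Hspa1a and Hspa1b were at their lowest. The margin was slight for Hsp90aa1, at 88.1 against 88.0 in flox mouse 2, and Dnajb1 was at 14.82 against 14.03 in flox mouse 3. In flox mouse 3 Hspa1a, Hspa1b and Hspa8 were at their highest. MI4KO mouse 3 is also the mouse with the high glucocorticoid-responsive genes, and the part of those genes or of the neutrophil genes in the chaperone values was not tested.

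Cryab (chr9:50751325-50756636, plus strand) was at 2956, 3053, 3509 and 3504 scaled CPM in flox mice 1 to 4 and at 3318, 3384, 2301 and 2347 in MI4KO mice 1 to 4. MI4KO mice 3 and 4 lay below all flox mice, and MI4KO mice 1 and 2 lay within their range. The log2 difference was -0.22 (standard error 0.14, 95% interval -0.52 to 0.08, unadjusted p = 0.138 by limma, exact permutation p = 0.286). It was -0.13 without MI4KO mouse 3 and -0.13 without MI4KO mouse 4, but -0.30 without MI4KO mouse 1 and -0.31 without MI4KO mouse 2. The unadjusted p of Cryab was under 0.05 in 2 of the 19 alternative fits, without MI4KO mouse 2 and among the mice of the upper number range. Both left out MI4KO mouse 2, its highest MI4KO mouse, which by itself widens the difference. Cryab overlaps Hspb2, another small heat shock protein gene on the opposite strand, by 1030 bases.

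Hspb7 (chr4:141420779-141425311, plus strand) was at 3525, 3160, 4145 and 4164 in flox mice 1 to 4 and at 4071, 3689, 2541 and 3184 in MI4KO mice 1 to 4. MI4KO mouse 3 was the lowest of the 8, and the other MI4KO mice lay within the flox range. The log2 difference of -0.17 (standard error 0.14, 95% interval -0.48 to 0.15, unadjusted p = 0.275 by limma) was -0.04 without that mouse.

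Hspb6 (chr7:30552178-30555443, plus strand), a small heat shock protein that is phosphorylated by cyclic nucleotide-dependent kinases, was at 3168, 2870, 3698 and 3733 in flox mice 1 to 4. In MI4KO mice 1 to 4 it was at 3741, 3590, 2944 and 2801. Each group held a high pair and a low pair over almost the same range, and the log2 difference was -0.04 (standard error 0.12, 95% interval -0.31 to 0.22).

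Hspb1 (chr5:135887919-135889563, plus strand), which caps actin filaments and responds to stress, was at 352.8, 424.9, 511.9 and 417.1 in flox mice 1 to 4 and at 397.0, 383.2, 337.0 and 331.7 in MI4KO mice 1 to 4. Only flox mouse 1 lay within the MI4KO range, and the other flox mice lay above it. The log2 difference was -0.23 (standard error 0.11, 95% interval -0.46 to 0.00), and its unadjusted p of 0.0532 by limma was the lowest of the members. An exact permutation test of Hspb1 gave p = 0.143. The unadjusted p of Hspb1 was under 0.05 in 5 of the 19 alternative ways of processing, among them leaving out the library labelled flox mouse 1, where the log2 difference was -0.31, and without flox mouse 3 it was -0.14. The adjusted p by limma, edgeR or DESeq2 stayed between 0.800 and 1.0 in all 19 alternative fits. Of its 50-base windows 51.6% also occur in the pseudogene Hsp25-ps1, which has no row in the table.

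Hspb6, Hspb7 and Cryab varied together from mouse to mouse, and Hspb1 followed them less closely. The summed value of all 4 small heat shock proteins was 10001, 9507, 11865 and 11817 in flox mice 1 to 4 and 11527, 11047, 8123 and 8665 in MI4KO mice 1 to 4. The sums of MI4KO mice 3 and 4 were the lowest of the 8, and those of MI4KO mice 1 and 2 lay among the flox mice. Over the 8 mice Hspb7 and Cryab had a Pearson r of 0.883, Hspb6 and Hspb7 of 0.856 and Hspb6 and Cryab of 0.849. Hspb1 had an r of 0.782 with Cryab, 0.650 with Hspb7 and 0.593 with Hspb6. Outside the family, Hspa1b and Hspb7 had an r of 0.800. All of these are descriptions of values that share libraries and scaling.

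Ratios within a library do not depend on that scaling. The ratio of Hspb7 to Hspb6 was 1.101 to 1.121 in the 4 flox mice and 1.09, 1.03, 0.863 and 1.14 in MI4KO mice 1 to 4. The ratio of Cryab to Hspb6 was 0.933 to 1.06 in flox mice and 0.887, 0.943, 0.782 and 0.838 in MI4KO mice 1 to 4. MI4KO mouse 3 had the lowest value of both ratios.

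**Figure D4:**
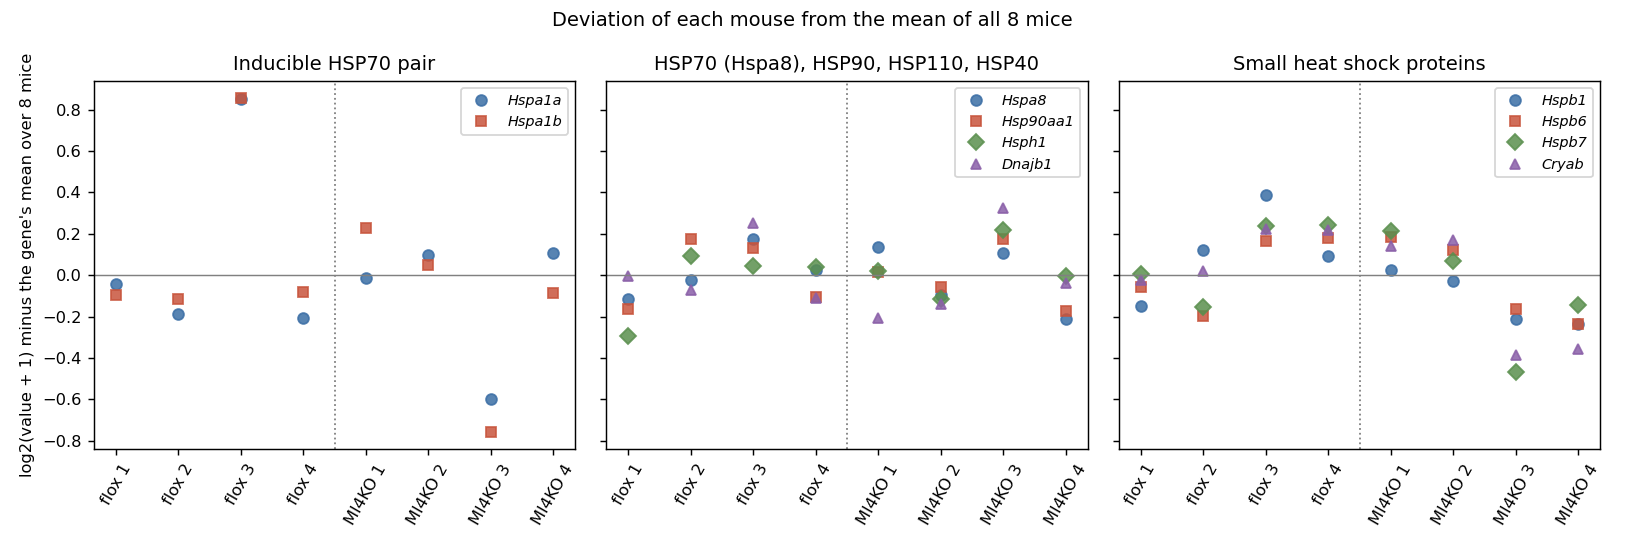
Deviation of each mouse from the gene's mean over the 8 mice, as log2(value + 1), with the HSP70 pair, the other large chaperones and the small heat shock proteins in separate panels and a dotted line between the groups. MI4KO mice 3 and 4 lie below 0 for all 4 small heat shock proteins, and MI4KO mouse 3 lies above 0 for the 4 genes of the middle panel.

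Fiber composition and neighbouring tissue can move with such values in bulk RNA, in which fewer cells of a type and less RNA per cell cannot be told apart. MI4KO mice 3 and 4 had summed values of 45257 and 38441 for 7 fast fiber genes, against 30315 and 34901 in the other MI4KO mice and 33192 to 37928 in flox mice. Their slow fiber sums were 50049 and 48821, just below 51894 and 50664 in the other MI4KO mice, while flox mouse 2 was at 48991. Flox mouse 3 had the highest fast fiber sum of the flox mice, 37928, and the highest small heat shock protein sum of the 8, 11865. The part of fiber composition in the low values of the small heat shock proteins was not tested.

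The mouse numbers in the labels form a lower range (flox mouse 1, MI4KO mice 1 and 2) and an upper range (flox mice 2 to 4, MI4KO mice 3 and 4), which the labels do not call batches. In the lower range both MI4KO mice lay above the single flox mouse for 9 members and below it for Dnajb1. With 1 flox mouse there, 66.2% of all genes tested did not overlap, with both MI4KO mice above the flox mouse for 23.2% and below it for 43.0%. That library, labelled flox mouse 1, is the one with liver transcripts and with Irf4 inside the MI4KO range.

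In the upper range 8 members were lower in MI4KO mice, the exceptions being Hsph1 and Dnajb1. The groups did not overlap for Hspb1 (means 451.3 and 334.3, log2 difference -0.43) and Cryab (means 3355 and 2324, log2 difference -0.53), both lower in MI4KO mice, where 9.11% of all genes tested did so. Within that range Cryab (unadjusted p = 0.0023, adjusted p = 0.800 by limma), Hspb1 (unadjusted p = 0.0039, adjusted p = 0.800 by limma), Hspb7 (unadjusted p = 0.0322, adjusted p = 0.828 by limma) and Hspa1b (unadjusted p = 0.0391, adjusted p = 0.842 by limma) had an unadjusted p under 0.05. Of all genes tested, 5.84% did. The log2 difference there was -0.64 for Hspa1b, -0.41 for Hspb7 and -0.25 for Hspb6. Hspa1b alone of the members passed the limits of the study there, as did 1.36% of all genes tested. Its groups overlapped, and its difference rested on flox mouse 3 at 92.7 and MI4KO mouse 3 at 29.5. The other mice of that range lay between 46.8 and 47.8 for Hspa1b. In the lower range the corresponding differences were 0.24 for Hspa1b, 0.14 for Hspb7, 0.21 for Hspb6, 0.14 for Hspb1 and 0.18 for Cryab. The difference between the ranges was not tested. With the range as a covariate, the log2 difference was -0.22 for Hspb1 and -0.27 for Cryab, and neither reached an unadjusted p under 0.05 by limma.

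None of the related chaperones passed the test for a change either. Over the lists of HSF regulators, other HSP70, HSP110 and HSP90 genes, other small heat shock proteins, J-domain proteins, co-chaperones, the CCT chaperonin, and mitochondrial and endoplasmic reticulum chaperones, 78 of 81 genes were tested. Of these, 40 were lower and 38 higher in MI4KO mice, 0 had an unadjusted p under 0.05 by limma (3.36% of all genes tested did), and the median log2 difference was 0.00.

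The regulators lay in a narrow range of log2 differences, from -0.03 for Hsbp1, which binds and restrains HSF1, to 0.12 for its relative Hsbp1l1. Among 9 other HSP70, HSP110 and HSP90 genes the differences ran from -0.18 for Hspa12b to 0.07 for Hspa13. The 4 other small heat shock proteins tested were all lower, from -0.15 for Hspb3 to -0.005 for Hspb8, and Hspb9 and Cryaa were too low to test.

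The 13 J-domain proteins ran from -0.11 for Dnajb14 to 0.13 for Dnaja2, and the 8 CCT subunits, which fold actin and tubulin, from -0.04 for Cct7 to 0.06 for Cct8. The 10 mitochondrial chaperones ran from -0.20 for Grpel2, a nucleotide exchange factor of mitochondrial HSP70, to 0.08 for Hspe1, the co-chaperonin HSP10. The 8 endoplasmic reticulum genes ran from -0.20 for Serpinh1, the collagen chaperone HSP47, to 0.06 for Dnajb9.

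The 21 co-chaperones ran from -0.13 for Bag5, which binds the HSP70 ATPase domain, to 0.45 for Fkbp5, an HSP90 co-chaperone of steroid receptors. Fkbp5 was at 158.6 in MI4KO mouse 3 and at 19.4 to 31.2 in the other 7 mice. It is also 1 of the 12 glucocorticoid-responsive genes, whose differences ran from -0.21 for Per1 to 0.94 for Mt2, with a median of 0.23 and no gene at an unadjusted p under 0.05 by limma.

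Other genes known to respond to heat ranged more widely than the chaperones, from a log2 difference of -0.87 for Egr1, an immediate early transcription factor, to 0.35 for Cdkn1a, a cell cycle inhibitor. Of these 11 genes, Ier5, an immediate early gene known to act on HSF1, was the only 1 with an unadjusted p under 0.05 by limma. Ier5 was at 43.5, 43.2, 59.1 and 34.4 in flox mice 1 to 4 and at 37.4, 42.5, 28.7 and 32.5 in MI4KO mice 1 to 4. Its highest mouse was flox mouse 3 and its lowest MI4KO mouse 3, as for Hspa1a and Hspa1b, and its log2 difference was -0.33 (unadjusted p = 0.0469, adjusted p = 1.0 by limma). The 8 partners of small heat shock proteins at Z-discs and filaments ran from -0.22 for Flnc, filamin C, to 0.07 for Des, desmin, with a median of -0.09.

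**Figure D5:**
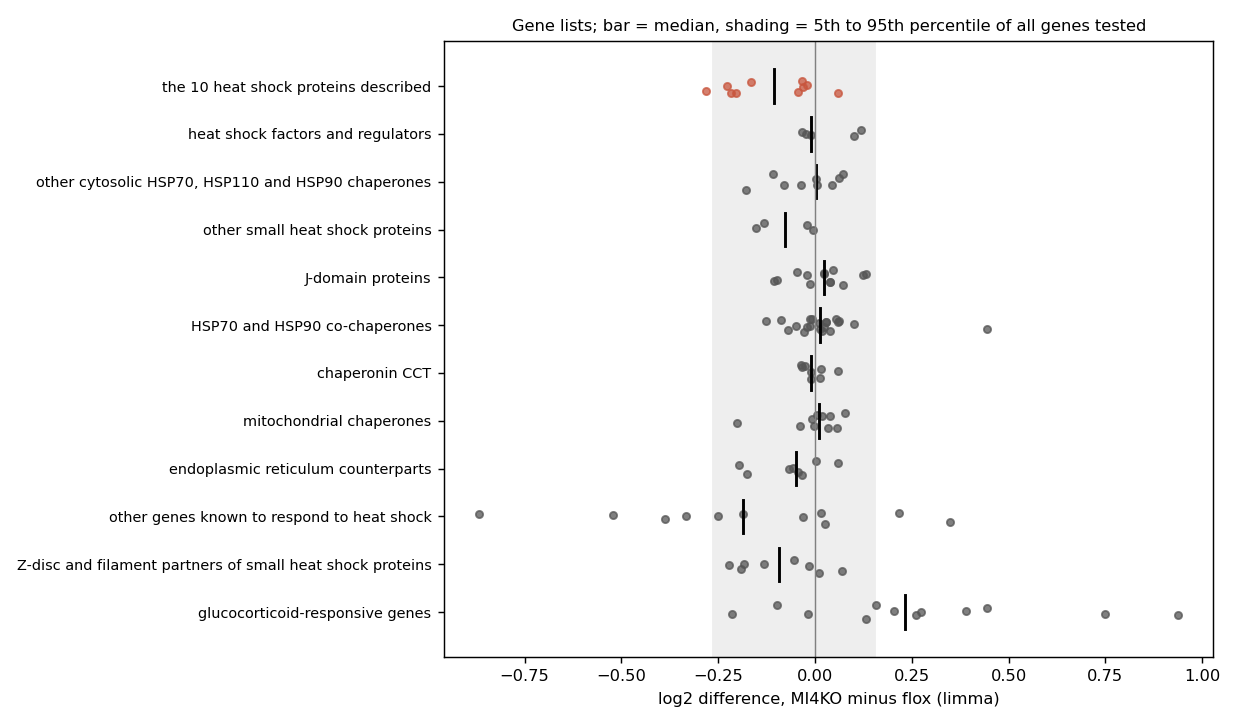
Log2 differences between MI4KO and flox mice for each gene tested in the lists, 1 point per gene, with a bar at the median of each list and shading from the 5th to the 95th percentile of all genes tested (-0.26 to 0.15). The medians of the chaperone lists lie between -0.08 for the other small heat shock proteins and 0.02 for J-domain proteins, and the widest points belong to the other heat-responsive and the glucocorticoid-responsive genes.

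Genes with the most similar pattern over the 8 mice were ranked by Pearson r on log2(value + 1) among the genes tested. The mean of Hspa1a, Hspa1b, Hspa8, Hsp90aa1, Hsph1 and Dnajb1 was followed most closely by Suv420h2 (r 0.945), Cdadc1 (0.940), Pdlim1 (0.937), Cep112 (0.918) and Zfp459 (0.917), all highest in flox mouse 3. This mean itself had an r of 0.843 with Hspa1a and with Hspa1b and of 0.604 with Hspa8. Its r was only 0.437 with Hsp90aa1, 0.374 with Dnajb1 and 0.201 with Hsph1. Cep112 and Zfp459 were low genes, with mean values of 2.43 and 1.22 over the 8 mice. The mean of Hspb1, Hspb6, Hspb7 and Cryab was followed most closely by Fibp (r 0.974), Armcx5 (0.967), Arl6ip5 (0.967), Prmt1 (0.966) and Tceal5 (0.962). These are the highest of 11865 correlations over only 8 mice, and they describe the pattern alone.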

How the data were processed

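SOL RNA of 4 MI4KO and 4 flox mice was sequenced as stranded poly(A) libraries with single reads of 50 bases. The submitters' processing notes name bcl2fastq 2.17, Bowtie2 2.1.0, RSEM 1.2.15 and mm10. The authors mapped reads to UCSC transcripts, estimated gene counts and deposited a TMM-scaled signal (CPM), together with fold changes, p-values and FDR of their own comparison, which were not used. Each value divided by the step of its mouse gave whole reads for 100% of non-zero values (tolerance 0.01). No column of values was left unmapped to a mouse. Reads carry no molecular identifiers, so floors cover counting error only.

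Groups were taken from the labels and compared with limma 3.58.1 (R 4.3.3) on log2(value + 1), with a trend of the variance over the mean, a scale that understates changes of low genes, and single genes by exact two-sided permutation tests (scipy 1.17.1). p-values measure the spread between these 8 mice. In data simulated for this comparison over 11759 genes, limma called 88 of 98 genes changed 2-fold, 97 of 99 changed 4-fold and 11 of 11562 unchanged genes at an adjusted p under 0.05. The simulated mice were independent draws without outlying mice or number ranges, and a 1.5-fold change was not simulated. These shares therefore check the procedure and do not give its power in the real data. On the recovered reads, edgeR 4.0.16 called 0 genes at an adjusted p under 0.05 and 363 at an unadjusted p under 0.05, and DESeq2 1.42.0 called 0 and 248. Other alternatives were another pseudocount, no filter, other scalings, no trend, robust estimation, the mouse-number range, the pair summed and each mouse left out. Leaving out flox mouse 1 and MI4KO mouse 3 together was chosen after seeing the data.

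The members and gene lists were chosen with earlier results of these data known. Genes named are the members, Irf4, the list genes with an unadjusted p under 0.05 or the lowest or highest difference, and the 5 closest correlates of each family mean. Hspa1l, Hspb2 and Hsp90ab1 were singled out as neighbours or partners after their values were seen. Positions are from GENCODE M21 and promoters from RefSeq. Shared windows were counted on either strand over all GENCODE transcripts.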

Additional observations from a re-analysis of the deposited data

Results flagged for a closer look

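Of 68 groups of 4 mice for 34 named genes, 11 held a mouse with a gap to its neighbour too large for Dixon's test. Among the members this was Hspa1a in flox mouse 3 at 175.6 (gap 0.844 of the range of its group) and in MI4KO mouse 3 at 63.7 (0.830), Hspa1b in flox mouse 3 at 92.7 (0.968) and Hsph1 in flox mouse 1 at 52.7 (0.865). Among related genes, Hsbp1 was high in flox mouse 3 at 101.5 and Grpel2 low in flox mouse 1 at 26.0. Bag5 was low in flox mouse 2 at 14.9 and high in MI4KO mouse 3 at 19.1. Dnajb9 was high in MI4KO mouse 1 at 41.7. Cdkn1a was high in flox mouse 2 at 16.2 and in MI4KO mouse 3 at 49.9. For a gene taken without regard to its values, chance gives about 1 in 20. Many of these genes were named for the lowest or highest difference in their list, which an outlying mouse can produce. The groups also share libraries, and Hspa1a and Hspa1b share reads. The 11 groups therefore cannot show an excess over 1 in 20, and the rate over all genes was not tested.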

How the results depend on the processing

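No member passed an adjusted p under 0.05 under any alternative, and the limits of the study took 0 members except among the mice of the upper number range alone, where they took 1, Hspa1b at -0.64. That difference rested on flox mouse 3 at 92.7 and MI4KO mouse 3 at 29.5, and the other mice of that range lay between 46.8 and 47.8. Leaving out 1 mouse at a time took 0 to 0 members. Over all genes, the study's limits took 26 genes, 71 with a pseudocount of 0.1, 13 with robust estimation, 65 with edgeR, 51 with DESeq2, 41 without flox mouse 1 and MI4KO mouse 3, 161 among the mice of the upper number range, and 19 to 58 with 1 mouse left out, the 58 without MI4KO mouse 4. At an adjusted p under 0.05, 1 gene passed without flox mouse 1 and MI4KO mouse 3, 1 among the mice of the upper number range, and 0 to 1 with 1 mouse left out, the 1 without MI4KO mouse 2.

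Differences near 0 changed sign. With equal column sums Hspa8 was at 0.012, Hsp90aa1 at 0.024 and Dnajb1 at 0.0087, and median-of-ratios scaling put Hsp90aa1 at 0.00014. The mouse-number range as a covariate put Hsp90aa1 at 0.0076 and Dnajb1 at 0.017. Dnajb1 was at 0.12 among the mice of the upper number range, and Hsph1 at -0.093 without flox mouse 1 and MI4KO mouse 3. For Hsph1 these were the lowest flox and the highest MI4KO mouse, and leaving them out can only lower its difference. With 1 mouse left out, the log2 difference ran from -0.31 to 0.045 for Hspa1a, from -0.41 to -0.043 for Hspa1b, from -0.083 to 0.033 for Hspa8, from -0.083 to 0.035 for Hsp90aa1, from -0.030 to 0.11 for Hsph1, from -0.15 to 0.046 for Dnajb1, from -0.31 to -0.14 for Hspb1, from -0.12 to 0.026 for Hspb6, from -0.26 to -0.037 for Hspb7 and from -0.31 to -0.13 for Cryab. The cause of these changes was not tested.

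Of the 192 differences of members under an alternative, 168 kept their direction and side of the threshold. Scaling moved the share of all genes tested that were lower from 56.2% to 48.2% with median-of-ratios factors and 40.1% with equal sums. With the mean transcript length the level per kb moved to 3915 for Cryab, 2698 for Hspb6, 1657 for Hspa8, 66.4 for Hsp90aa1 and 32.8 for Hsph1. No paired analysis was possible because the mice carry their own numbers and the replicate numbers only follow the order of those numbers. Depth did not limit the members, whose fewest reads were 137 for Dnajb1, but 4 mice per group limit the intervals.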
